A study of Mus musculus with 141 samples.

Results

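The genes described here are 10 neighbouring members of clade A of the mouse serpin superfamily, Serpina1a, Serpina1b, Serpina1c, Serpina1d, Serpina1e, Serpina3c, Serpina3g, Serpina3k, Serpina3m and Serpina3n, chosen by name from the 24423 genes of the deposited tables. RNA-seq measured gene expression in 3 tissues, liver, lung and kidney, in 47 Collaborative Cross (CC) strains, which are a panel of recombinant inbred mouse strains with shared founders. A single male, 8 to 12 weeks old, stood for each strain, so that each tissue held 47 libraries. Before tissue collection every mouse had been exposed to clear air in a chamber for 6 hours a day on weekdays over 2 weeks, under a 12-hour light cycle and on an NTP wafer diet. No group received another treatment and no strain had a second mouse, so differences between strains and between single mice cannot be told apart. In whole tissue, more cells of a type and more RNA per cell cannot be told apart either.

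The liver libraries held between 1738046 and 42158454 expected counts, with a median of 10423382. Lung libraries held between 2829104 and 17585682 (median 9338124), and kidney libraries between 3046695 and 15028553 (median 8245850). The shallowest libraries, under 3000000 counts, were 2 of liver and 2 of lung. At the median depth, 3 counts corresponded to 0.288 CPM (counts scaled to one library total) in liver, 0.321 CPM in lung and 0.364 CPM in kidney, which is taken below as the floor of detection and covers counting error only. Hepatocyte markers summed to between 30923 and 136688 TPM (transcripts scaled by length and library total) in liver, proximal tubule markers to between 30330 and 164817 TPM in kidney, and alveolar type 2 markers to between 4604 and 43717 TPM in lung, so each tissue held the defining transcripts of its label.

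Serpins inhibit proteases by a mechanism that spends the inhibitor. An exposed reactive centre loop is offered to the protease as a substrate, and cleavage of the loop traps the enzyme in a stable complex. The residues of this loop set which protease is recognized. Serpina1 genes encode alpha-1-antitrypsin, which hepatocytes secrete into plasma and which protects the lung from neutrophil elastase. The mouse Serpina3 genes are counterparts of the single human gene for alpha-1-antichymotrypsin, an acute-phase protein. Serpina3n inhibits granzyme B among other proteases, Serpina3g inhibits lysosomal cysteine cathepsins inside cells of the immune system and is induced by interferon-gamma, and Serpina3k and Serpina3c bind tissue kallikreins. The number of Serpina1 genes is known to differ between inbred strains of mice.

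All 10 genes lie on chromosome 12. In build NCBIM37, the build of the deposited files, Serpina1b occupied chr12:104966366-104976368, Serpina1d chr12:105001804-105011802, Serpina1a chr12:105091799-105104137, Serpina1c chr12:105133136-105143097 and Serpina1e chr12:105185141-105197185, all on the minus strand. Serpina3c followed on the same strand at chr12:105384592-105392080. Serpina3g at chr12:105474455-105480149, Serpina3k at chr12:105576696-105583951, Serpina3m at chr12:105625374-105632467 and Serpina3n at chr12:105644939-105652539 lay on the plus strand.

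The Serpina1 genes are nearly identical in the C57BL/6J reference. Their coding sequences shared between 96.3% and 98.5% of bases, and Serpina1a and Serpina1c were the closest pair. The reads were 50 bases long and were counted where they aligned uniquely, so the share of a transcript's 50-base windows found at a single place in the genome bears on how much of each gene could be counted. That share was 26.3% for Serpina1c, 34.9% for Serpina1a, 49.1% for Serpina1d, 51.9% for Serpina1b and 62.1% for Serpina1e. Serpina1c shared 67% of its windows with Serpina1a. The Serpina3 genes were more distinct, with 80.9% of windows unique in Serpina3m, 82.4% in Serpina3k, 85.2% in Serpina3g, 93.1% in Serpina3n and 95.3% in Serpina3c. These values describe the reference, and the genomes of the 47 strains were not examined. All counts of the Serpina1 genes are therefore uncertain to the extent that reads of one were not counted or fell to another.

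The loop is shown because it is the part of the protein that meets the protease. The coding bases of the reactive centre loop of the 5 Serpina1 genes are given in NCBIM37, each on the minus strand and 57 bases long, with the bases that differ from Serpina1a in capitals. They span chr12:105091984-105092040 in Serpina1a, chr12:104966551-104966607 in Serpina1b, chr12:105133321-105133377 in Serpina1c, chr12:105001989-105002045 in Serpina1d and chr12:105185327-105185383 in Serpina1e.
Serpina1a: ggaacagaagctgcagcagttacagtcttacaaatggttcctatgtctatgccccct
Serpina1b: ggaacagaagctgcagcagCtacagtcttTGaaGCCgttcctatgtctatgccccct
Serpina1c: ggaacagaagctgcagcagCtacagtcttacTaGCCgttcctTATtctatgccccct
Serpina1d: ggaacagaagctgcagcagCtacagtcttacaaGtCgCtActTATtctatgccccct
Serpina1e: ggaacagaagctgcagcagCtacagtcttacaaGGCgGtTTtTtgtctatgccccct
Serpina1b differed from Serpina1a at 6 of these bases, and Serpina1c, Serpina1d and Serpina1e differed at 8 each.

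The loops of the Serpina3 genes differed more, and also in length. In the following 4 sequences the hinge and the end of the loop, where most encoded residues are shared, are in lower case and the bases between them in capitals, at chr12:105385523-105385600 on the minus strand for Serpina3c and on the plus strand at chr12:105583476-105583556 for Serpina3k, chr12:105631976-105632062 for Serpina3m and chr12:105651655-105651741 for Serpina3n.
Serpina3c: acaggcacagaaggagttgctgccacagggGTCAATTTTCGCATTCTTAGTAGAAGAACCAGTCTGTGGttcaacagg
Serpina3k: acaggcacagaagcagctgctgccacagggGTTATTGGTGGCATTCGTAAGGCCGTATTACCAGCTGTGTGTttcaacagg
Serpina3m: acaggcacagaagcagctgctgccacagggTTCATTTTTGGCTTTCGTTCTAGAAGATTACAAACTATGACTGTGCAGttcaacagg
Serpina3n: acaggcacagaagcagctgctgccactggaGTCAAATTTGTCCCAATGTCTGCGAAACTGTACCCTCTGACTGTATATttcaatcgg
The part in capitals was 39 bases long in Serpina3c, 42 in Serpina3k and 48 in both Serpina3m and Serpina3n. No sequence is shown for Serpina3g.

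Near their starts the 5 Serpina1 genes differed by few bases from Serpina1b. A stretch of 93 bases around or before the annotated start is shown to make this visible, on the minus strand of GRCm38.p6 from RefSeq, a later build than that of the expression files, with the bases that differ from Serpina1b in capitals. The stretches lie at chr12:103863575-103863667 for Serpina1a, chr12:103738150-103738242 for Serpina1b, chr12:103904912-103905004 for Serpina1c, chr12:103773584-103773676 for Serpina1d and chr12:103956910-103957002 for Serpina1e.
Serpina1a: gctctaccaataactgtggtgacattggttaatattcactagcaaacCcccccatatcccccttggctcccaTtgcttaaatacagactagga
Serpina1b: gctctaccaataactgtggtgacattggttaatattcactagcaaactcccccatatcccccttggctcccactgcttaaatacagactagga
Serpina1c: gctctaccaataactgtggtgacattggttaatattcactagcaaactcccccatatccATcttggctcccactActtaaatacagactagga
Serpina1d: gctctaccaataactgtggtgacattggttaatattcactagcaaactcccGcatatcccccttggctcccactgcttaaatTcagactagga
Serpina1e: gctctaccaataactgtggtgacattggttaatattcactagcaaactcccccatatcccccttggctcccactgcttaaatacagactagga
Serpina1b and Serpina1e were identical over the stretch in this reference. Their spread across strains differed, as described below. The promoters of the strains were not examined, so a part of this stretch in that difference was not tested. The 300-base promoters of 27025 genes were searched for motifs on both strands. TTGCNNAA, a C/EBP palindrome, was present in 4 of the 8 members in the promoter table and in 12.2% of all promoters. TTCNNNGAA, a STAT palindrome, was present in Serpina3g alone among the 8 and in 9.55% of all promoters. An NF-kB pattern and an interferon-stimulated element were present in none of the 8 and in 1.63% and 3.99% of all promoters, and the TATA box TATAAA was present in Serpina3c alone and in 15.7%. The table held no promoter for Serpina3k or Serpina3m.

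Serpina3k was the most abundant of the 10 transcripts in liver. Its level ranged from 3419 TPM in CC016 to 31826 TPM in CC015 (median 17283, mean 17579 ± 7181 SD, n = 47). It exceeded Serpina1b, the next of the genes by mean, in all 47 livers.
Serpina1b ranged from 1259 TPM in CC033 to 8832 TPM in CC007 (median 5490, mean 5312 ± 1791 SD, n = 47). Serpina1c ranged from 39.4 to 6012 TPM around a median of 2563, and Serpina1d from 162 to 4441 TPM around a median of 1226. Serpina1d was above Serpina3n in 45 of the 47 livers. Serpina3n ranged from 112 to 1143 TPM (median 427), and Serpina3m from 15.4 to 724 TPM (median 139). Serpina3n exceeded Serpina3m in 42 livers. By TPM the levels of these genes followed the order Serpina3k, Serpina1b, Serpina1c, Serpina1d, Serpina3n and Serpina3m, with neighbours exchanging places in some strains, as Serpina1c was above Serpina1d in 37 livers. Per unique window the mean of Serpina1c was above that of Serpina1b, at 4541 ± 2833 against 4254 ± 1930 CPM per 1000 unique windows (SD, n = 47), so the order of these 2 genes turned with the share of each that could be counted. Serpina1e stood after Serpina1b by its mean of 3059 ± 4539 TPM (SD, n = 47), but after Serpina3m by its median of 36.3 TPM, and it exceeded Serpina1c in 18 livers.

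At the low end, Serpina1a ranged from 3.16 to 17.7 TPM in liver (median 9.93). No liver held more than 0.223% of its Serpina1 transcripts, by TPM, as Serpina1a. The deposited tables name 2 transcripts for Serpina1a and 1 for each of the other members. Across all genes, 17.7% of those with more than 1 transcript named passed the expression filter in liver, against 43.3% of those with 1, and the part of this difference in the level of Serpina1a was not tested. Serpina3g reached a median of 4.53 TPM in liver, and Serpina1a exceeded it in 41 livers. Serpina3c had a median of 0.74 TPM and at most 3 counts in 20 livers, so that its level could not be measured in those.

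**Figure D1:**
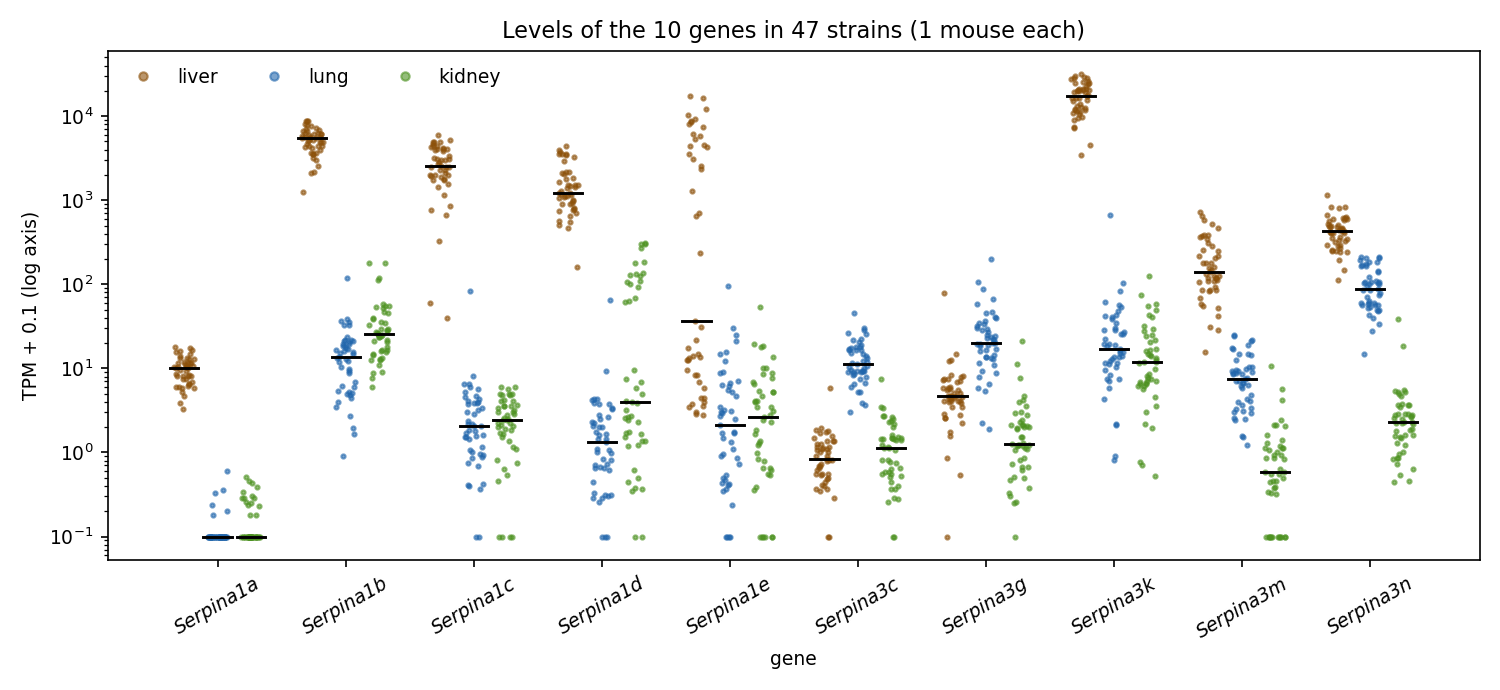
TPM plus 0.1 of the 10 genes on a log axis, with 1 point per strain and tissue (47 strains, 1 mouse each) and bars at the medians. Serpina1e in liver covers the range from 2.66 to 17601 TPM, and Serpina1d in kidney falls into a low and a high set of strains.

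The strains differed most in Serpina1e. In liver its level ranged from 2.66 TPM in CC055 to 17601 TPM in CC042, with a median of 36.3 TPM. The standard deviation of log2(TPM + 1) across strains was 4.65, the largest of the 9002 genes that passed the expression filter in liver, whose median standard deviation was 0.50. Serpina1c, with 1.44, ranked 162nd, Serpina3m 247th, Serpina1d 443rd and Serpina3g 476th. Serpina1b, with 0.58, exceeded 72.6% of the genes, and Serpina1a, with 0.51, exceeded 56.1%.

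The livers fell into a low and a high set for Serpina1e. In 24 strains the level lay between 2.66 and 36.3 TPM, from 8 to 131 counts, and in the other 23 strains between 238 and 17601 TPM, from 599 to 452466 counts. The lowest of the high set was CC045 and the highest of the low set CC041. This gap of 2.68 on the log2(TPM + 1) scale was the 14th largest of the 9002 genes among gaps that left at least 6 strains on each side, the median over genes being 0.14. Without that minimum it ranked 54th. The same 23 strains lay above the largest gap on TMM-scaled values.

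**Figure D2:**
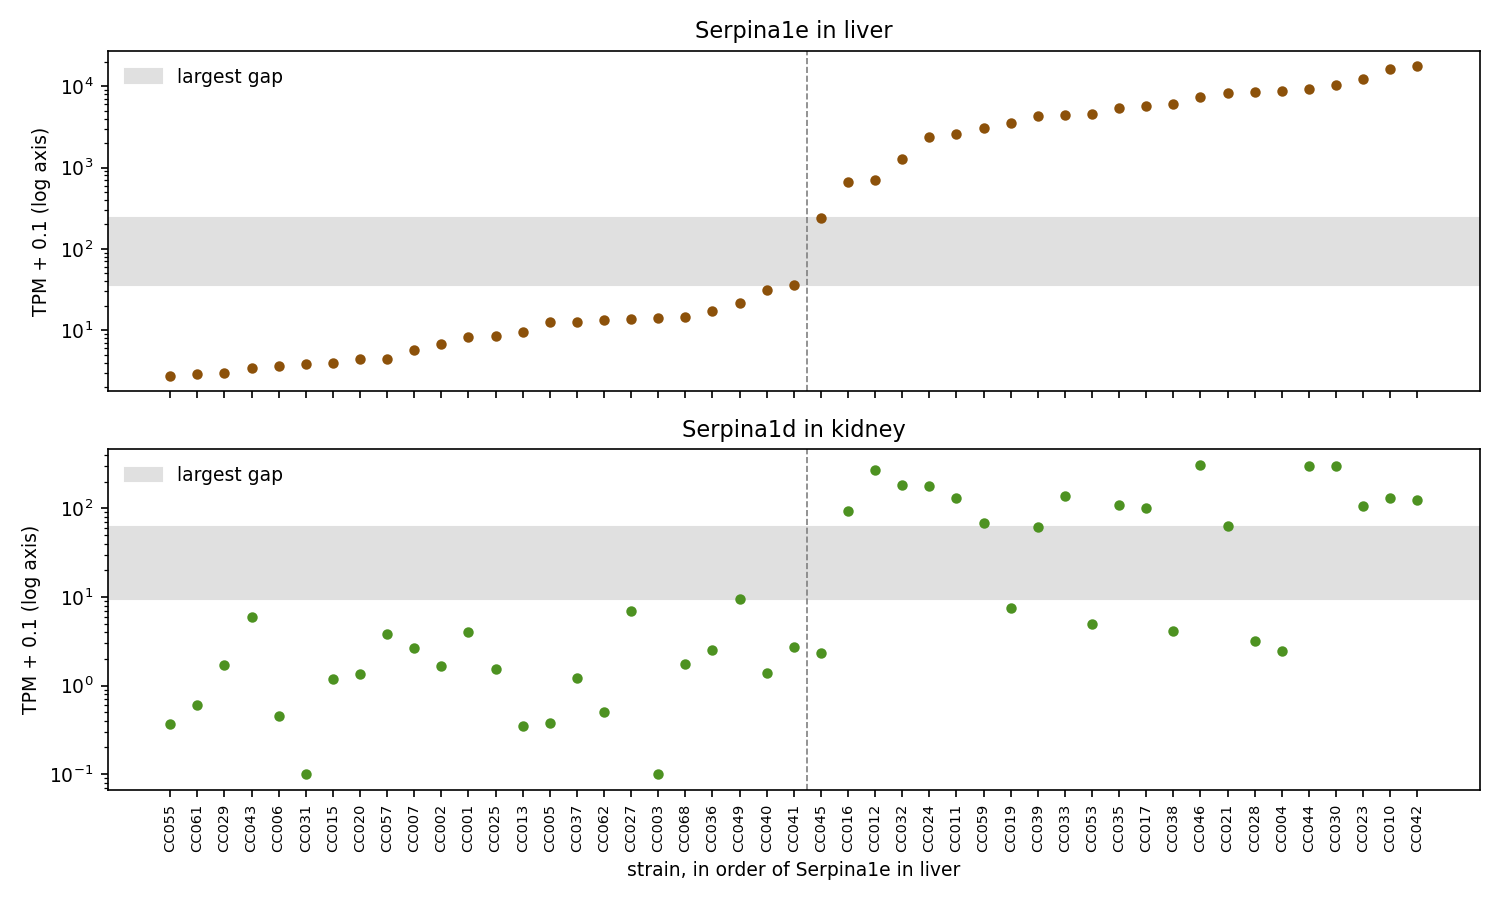
Serpina1e in liver and Serpina1d in kidney, as TPM plus 0.1 on log axes, with the 47 strains in the order of Serpina1e in liver and the largest gap of each gene shaded. All 17 strains above the gap in kidney are to the right of the dashed line, which parts the 24 and the 23 strains in liver.

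Serpina1d was split in the same way, but in kidney. Its kidney level lay between 0 and 9.46 TPM in 30 strains and between 61.8 and 312 TPM in 17, with CC049 the highest of the low set and CC039 and CC046 the ends of the high set. The gap of 2.58 was the 23rd largest of 10772 genes in kidney by the same measure, and the 66th without the minimum of strains on each side. In liver the level of Serpina1d had no such gap apart from 1 strain, CC029, at 162 TPM, below 462 TPM in the next.
The strains of both splits were nested. All 17 strains with high Serpina1d in kidney were among the 23 with high Serpina1e in liver, 24 strains were low for both, and no strain was high in kidney alone. The 6 strains high in liver alone were CC004, CC019, CC028, CC038, CC045 and CC053. Serpina1e in their livers ranged from 238 to 8771 TPM, while Serpina1d in their kidneys ranged from 2.22 to 7.46 TPM, on 4 to 44 counts. Both sets of strains were read from these same values, so no test is given. The genotypes of the strains on chromosome 12 were not analysed here.

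Serpina1c was low in liver in single strains. CC011 had 39.4 TPM and CC046 59.8 TPM, and the next liver, that of CC038, had 331 TPM. Both strains were in the high set for Serpina1e, and in CC011 Serpina1d formed 32.4% of the Serpina1 transcripts by TPM, its highest share in any liver.

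The makeup of the Serpina1 transcripts differed between livers. The 5 genes together ranged from 4715 TPM in CC029 to 28248 TPM in CC010, a 5.99-fold range with a median of 11414 TPM. Without Serpina1e the sum of the other 4 ranged from 2769 to 16241 TPM, a 5.86-fold range. Serpina1b was the most abundant of the 5 in 33 livers and Serpina1e in the other 14. The share of Serpina1b was between 15.3% and 67.3%, that of Serpina1c between 0.365% and 42.2% and that of Serpina1d between 3.44% and 32.4%. Serpina1e formed between 0.0206% and 62.9%. Together the 10 genes took between 0.392% and 4.29% of the counts of a liver library.

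**Figure D3:**
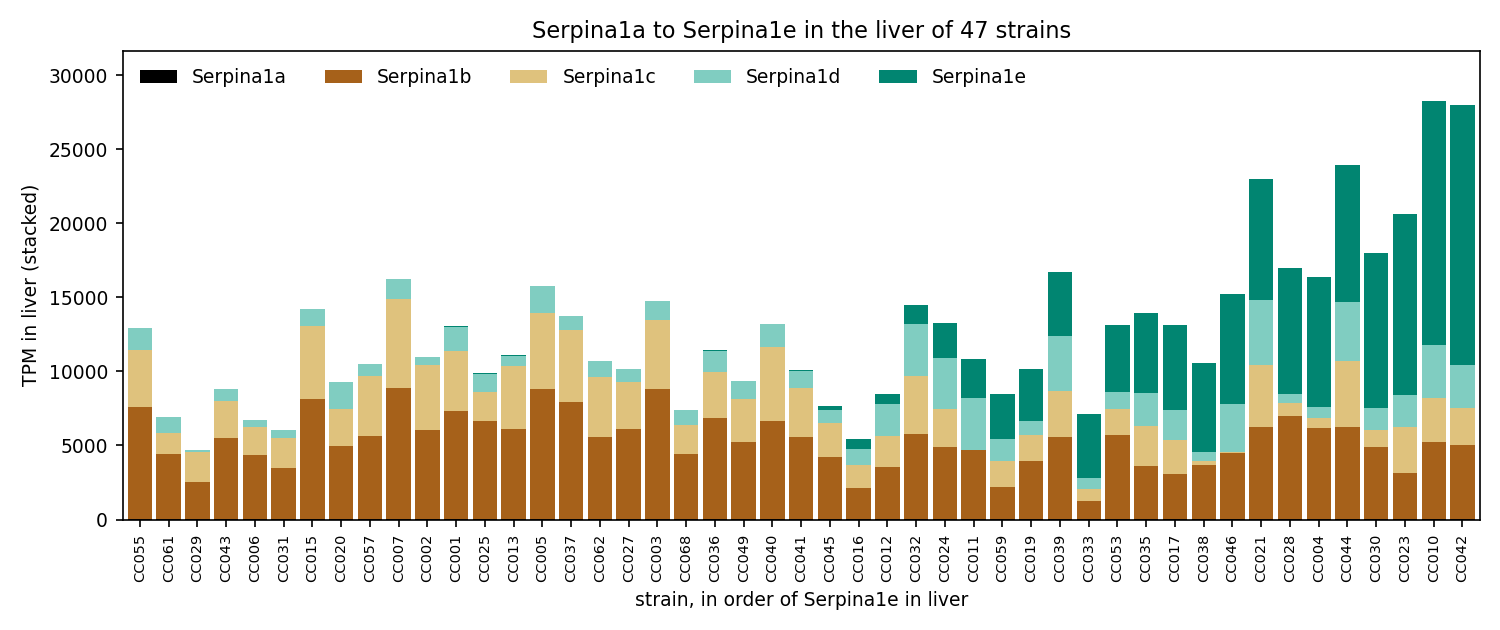
Stacked TPM of Serpina1a to Serpina1e in each liver, with strains in the order of Serpina1e. Serpina1e is visible only in strains to the right, where it reaches 62.9% of the column in CC042, and Serpina1a is too low to be seen in any.

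Among the Serpina3 genes Serpina3k formed between 80.6% and 98.4% of the summed TPM in liver, and CC016 gave the lowest share. Its liver had the lowest Serpina3k, at 3419 TPM, and the highest Serpina3g, at 79.1 TPM against 14.8 TPM in the next strain. CC016 also had the highest Serpina3g in lung, 201 TPM, and in kidney, 21.2 TPM. In this strain the summed level of the 20 listed interferon-gamma response genes, which do not include Serpina3g, was the highest of the 47 strains in liver (1597 TPM against a median of 233), lung (2675 against 695) and kidney (2018 against 178). Its liver had the highest sums of macrophage markers (335 TPM, median 125, 5 of 5 markers above 3 counts in the median liver), T cell markers (15.6 TPM, median 2.24, 1 of 7) and neutrophil markers (88.8 TPM, median 2.69, 0 of 5). In its lung the macrophage sum of 192 TPM ranked 22nd, the T cell sum of 29.9 TPM 32nd and the neutrophil sum of 580 TPM 3rd. In its kidney the T cell sum of 6.51 TPM ranked 3rd (median 2.14), the neutrophil sum of 4.66 TPM 11th and the macrophage sum of 43.5 TPM 25th. Their part in the level of Serpina3g was not tested.

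Outside the liver, Serpina3n had the highest level in lung by mean and by median, while in kidney Serpina1d had the highest mean and Serpina1b the highest median. In lung Serpina3n ranged from 14.8 to 212 TPM (median 87.5) and was the highest Serpina3 gene in 40 of 47 strains. Serpina3g ranged from 1.79 to 201 TPM (median 19.9), Serpina3c from 2.92 to 45.2 TPM (median 11.2) and Serpina3m from 1.11 to 25.0 TPM (median 7.29). Serpina1b ranged from 0.80 to 118 TPM (median 13.7) and Serpina3k from 0.71 to 674 TPM (median 16.8). By mean the order in lung was Serpina3n, Serpina3k, Serpina3g, Serpina1b and Serpina3c, but Serpina3k exceeded Serpina3g in 22 strains only and Serpina1b exceeded Serpina3c in 27, so those neighbours did not differ beyond their spread.
In kidney Serpina1b ranged from 5.93 to 178 TPM (median 25.3) and was the highest Serpina1 gene in 28 strains. Serpina1d had a mean of 58.5 ± 90.9 TPM (SD, n = 47) but a median of 3.87, and was the highest in 17, which were the same 17 strains as those of its high set. Serpina3k ranged from 0.43 to 127 TPM (median 11.7). Serpina1a, Serpina1c, Serpina1e, Serpina3c, Serpina3g, Serpina3m and Serpina3n had medians of 2.54 TPM or less in kidney, and Serpina3m had at most 3 counts in 27 kidneys. Serpina1a had at most 3 counts in every lung and every kidney library.

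The comparison of tissues asked where the genes were expressed most. In the fit over all 12127 genes with enough counts, a gene was called where q did not exceed 0.1 and the log2 fold change was 1 or more in size, and the 3 comparisons share their libraries. The fit held all 10 members. Of these, Serpina1a passed the filter on low counts only through its livers, with no lung and no kidney above 1 CPM, and Serpina3c only through its lungs, so that a difference of these 2 genes was set by the filter. Between liver and lung 55% of all genes were called, 23.9% as higher in liver and 31% as higher in lung, and 8 of the 10 members were higher in liver and 1 in lung, or 7 and 0 of the 8 without Serpina1a and Serpina3c. Between liver and kidney 36.4% were called, 15.6% as higher in liver, and 9 members were higher in liver and none in kidney, or 8 of the 8. Between lung and kidney 46.1% were called, 25.5% as higher in lung and 20.6% as higher in kidney, and 4 members were higher in lung and 2 in kidney, or 3 and 2 of the 8.

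Serpina3k, Serpina1b, Serpina1c and Serpina1d were called as higher in liver than in either of the other tissues. Serpina3k had 17465 ± 6500 CPM in liver, 13.7 ± 28.6 in lung and 13.0 ± 23.2 in kidney (SD, n = 47). Its log2 fold change was 11.20 ± 0.19 (SE) against lung and 11.53 ± 0.19 against kidney (q = 1.5e-76 and q = 1.2e-76, limma-voom). Serpina1b had 4468 ± 1119 CPM in liver against 5.19 ± 4.91 in lung and 17.6 ± 17.6 in kidney, log2 fold changes of 10.12 ± 0.15 and 8.52 ± 0.15 (q = 9.5e-81 and q = 4.5e-76, limma-voom).
Serpina1c, at 2340 ± 1118 CPM in liver, was 11.48 ± 0.17 higher on the log2 scale than in lung and 11.07 ± 0.17 higher than in kidney (q = 1.6e-81 and q = 1.6e-80, limma-voom). Serpina1d, at 1392 ± 818 CPM in liver, was 11.57 ± 0.31 higher than in lung and 6.74 ± 0.25 higher than in kidney (q = 2.4e-58 and q = 3.8e-46, limma-voom). Of the libraries behind these folds, Serpina1d had at most 3 counts in 23 of 47 lungs and 12 kidneys, Serpina1c in 11 lungs and 9 kidneys, and Serpina1e in 17 lungs and 15 kidneys, so their fitted folds depend on values at the floor and are no bounds. By CPM, Serpina1e exceeded its lung level in the livers of 46 strains and its kidney level in those of 44. The fitted folds were 9.86 ± 0.51 and 10.13 ± 0.51 on the log2 scale (q = 9.1e-35 and q = 1.5e-35, limma-voom). Its livers overlapped with both, its low set having between 2.66 and 36.3 TPM. The median of that set was 8.3 TPM, against medians of 2.02 TPM over all lungs and 2.54 TPM over all kidneys. These folds are thus no common difference of all strains. For Serpina1a, whose lung and kidney values are at the floor, counts pooled over the libraries gave 6.96 CPM in liver against 0.0162 CPM in lung on 7 counts, a ratio of 429 (exact 95% interval 208 to 1068), and 0.0513 CPM in kidney on 21 counts, a ratio of 136 (88.6 to 219). The intervals cover counting error only.

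**Figure D4:**
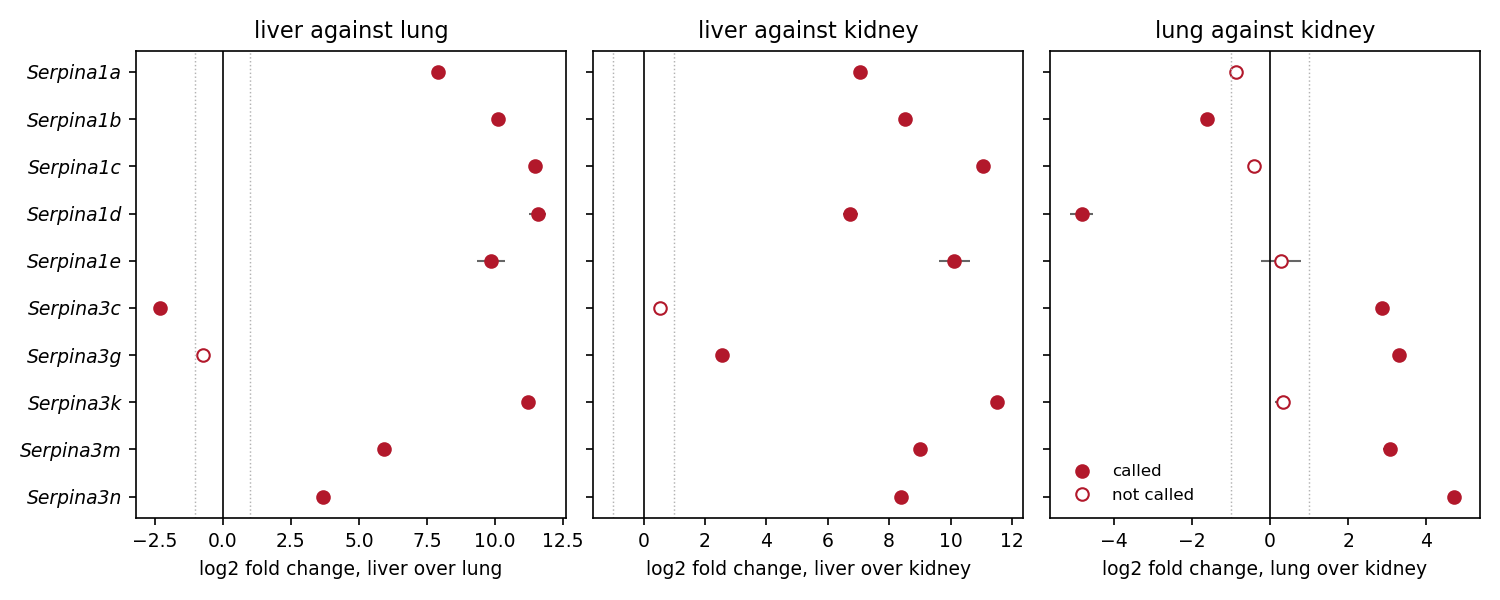
log2 fold changes of the 10 genes in the 3 comparisons of tissues, with standard errors from limma-voom as bars. Filled points were called by q and by a log2 fold change beyond the dotted lines, and the values of Serpina1a rest on lung and kidney libraries with 3 counts or fewer.

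Serpina3n and Serpina3m were expressed most in liver and also in lung. Serpina3n had 564 ± 221 CPM in liver, 44.6 ± 20.4 in lung and 2.47 ± 4.41 in kidney (SD, n = 47). On the log2 scale liver exceeded lung by 3.67 ± 0.12 (q = 6.3e-50, limma-voom) and lung exceeded kidney by 4.72 ± 0.15 (q = 1.7e-52, limma-voom), and it was higher in lung than in kidney in all 47 strains. Serpina3m had 203 ± 153 CPM in liver, 3.19 ± 2.24 in lung and 0.729 ± 1.83 in kidney, with log2 fold changes of 5.91 ± 0.16 and 3.08 ± 0.18 for the same comparisons (q = 2.5e-59 and q = 3.6e-30, limma-voom), the latter with at most 3 counts in 27 kidneys.
Serpina3c and Serpina3g had their highest mean levels in lung. Serpina3c had 4.83 ± 2.38 CPM in lung, 0.948 ± 0.892 in liver and 0.681 ± 0.574 in kidney, and was higher in lung than in either in all 47 strains, although the values overlapped between tissues (log2 fold change -2.31 ± 0.14 with liver first, q = 8.3e-29, and 2.86 ± 0.14 over kidney, q = 2.3e-35, limma-voom). Because Serpina3c passed the filter only through its lungs, these 2 differences were set by the filter and their q values carry no weight. It had at most 3 counts in 20 livers and 20 kidneys. The difference between liver and kidney was 0.54 ± 0.15 and was not called, and it was negative when libraries were scaled by total counts (-0.37) and on the log2 TPM scales (-0.18 and -0.28).
Serpina3g had 13.3 ± 16.2 CPM in lung, 8.59 ± 18.3 in liver and 1.56 ± 2.84 in kidney. It was higher in lung than in kidney in all 47 strains (log2 fold change 3.31 ± 0.15, q = 5.4e-38, limma-voom, with at most 3 counts in 14 kidneys) and higher in lung than in liver in 33. The latter difference of -0.74 ± 0.15 was under the fold threshold, and was -2.07 and past it when libraries were scaled by total counts. That scaling moved the median of all genes by -1.38 between liver and lung, so relative to all genes Serpina3g differed about as before.

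In kidney against lung, Serpina1b and Serpina1d were the members that were higher. Serpina1b had a log2 fold change of -1.61 ± 0.15 for lung against kidney (q = 2.7e-17, limma-voom) and was higher in kidney in 39 of 47 strains. Serpina1d had 0.913 ± 2.30 CPM in lung and 29.4 ± 44.6 in kidney, a log2 fold change of -4.83 ± 0.30 (q = 5.3e-29, limma-voom), and was higher in kidney in 37 strains. Its kidney median was 130 TPM in the 17 strains of its high set and 1.64 TPM in the 30 of its low set. The median over all 47 lungs was 1.24 TPM, so this fold is no common difference of all strains. Serpina3k, at 0.32 ± 0.19 (q = 0.11), and Serpina1c, at -0.41 ± 0.16 (q = 0.014, limma-voom), were not called, and the sign of Serpina1c was positive on the log2 TPM scales (0.03 and 0.05). Serpina1e, at 0.27 ± 0.51 (q = 0.62, limma-voom), was higher in kidney in 27 strains, and its value ranged from -0.69 to 0.40 under the other settings.

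In lung and kidney several members varied across strains together with transcripts of hepatocytes. Of the 10 hepatocyte markers 7 had more than 3 counts in the median lung and the median kidney, and Ahsg, Apoa2 and Apoc3 were at or under that. Their sum ranged from 6.52 to 1953 TPM in lung, a median of 0.160% of that of the same strain in liver, and from 34.7 to 1633 TPM in kidney, a median of 0.485%. The kidney sum rested largely on Ttr and Apoh, its median being 368 TPM with them and 72.8 TPM without. Without them the kidney sum ranged from 3.57 to 694 TPM, a median of 0.0913% of liver, and that of lung remained at 0.160%. Alb alone had a median of 0.139% of its liver level in lung and 0.0923% in kidney, and Cps1 0.136% and 0.0782%. The median level of Serpina3k was 0.129% of that in liver in lung and 0.0570% in kidney. The largest hepatocyte sum in lung was that of CC010, whose lung also had the highest Serpina3k (674 TPM), Serpina1b (118 TPM), Serpina1e (95 TPM), Serpina1c (82.7 TPM), Serpina1d (64.3 TPM) and Serpina3m (25.0 TPM) of the 47. Its Serpina3n ranked 25th and its Serpina3g 41st.

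The relation across strains was described by the correlation of rank inverse normal values, with a permutation test adjusted over all pairs of a member and another gene in a tissue. In lung 0.27% of 111456 such pairs were called at q of at most 0.1, and in kidney 0.255% of 86140. All 7 hepatocyte markers that passed the expression filter in lung were called with Serpina3k, with r between 0.81 and 0.93, and likewise with Serpina1c, Serpina1d, Serpina1e and Serpina1b, the last with r between 0.58 and 0.72. None of the 7 was called with Serpina3c, Serpina3g, Serpina3m or Serpina3n in lung. In lung the r of Serpina3m with the 7 was between 0.25 and 0.40. In kidney 5 of the 7, all but Apoh and Ttr, were called with Serpina3k and with Serpina1e, and 5 with Serpina1c. None was called with Serpina1b, Serpina3c, Serpina3g or Serpina3n in kidney, where r with Serpina3n was between -0.21 and 0.43.
Serpina1d in kidney was examined within its low and high sets, which were cut on these same values. The low set held 0 to 44 counts of Serpina1d and included all 12 kidneys with at most 3 counts, so part of its order is at the floor. Among the 30 strains of the low set it was correlated with Alb (r = 0.67, rho = 0.62, permutation p = 4e-05, q = 0.086), Cps1 (r = 0.69, rho = 0.66, permutation p = 3e-05, q = 0.086) and Serpina1e (r = 0.70, rho = 0.72, permutation p = 2e-05, q = 0.086), where 5 of 10771 genes, or 0.0464%, were called. Among the 17 strains of the high set no gene was called, and r was 0.03 with Alb (q = 0.99) and 0.08 with Cps1 (q = 0.98). With Serpina1b it was 0.70 in the high set (rho = 0.70, permutation p = 0.0018, q = 0.84) and 0.26 in the low set (q = 1). Whether liver RNA in the lung and kidney samples took part in these levels was not tested.

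**Figure D5:**
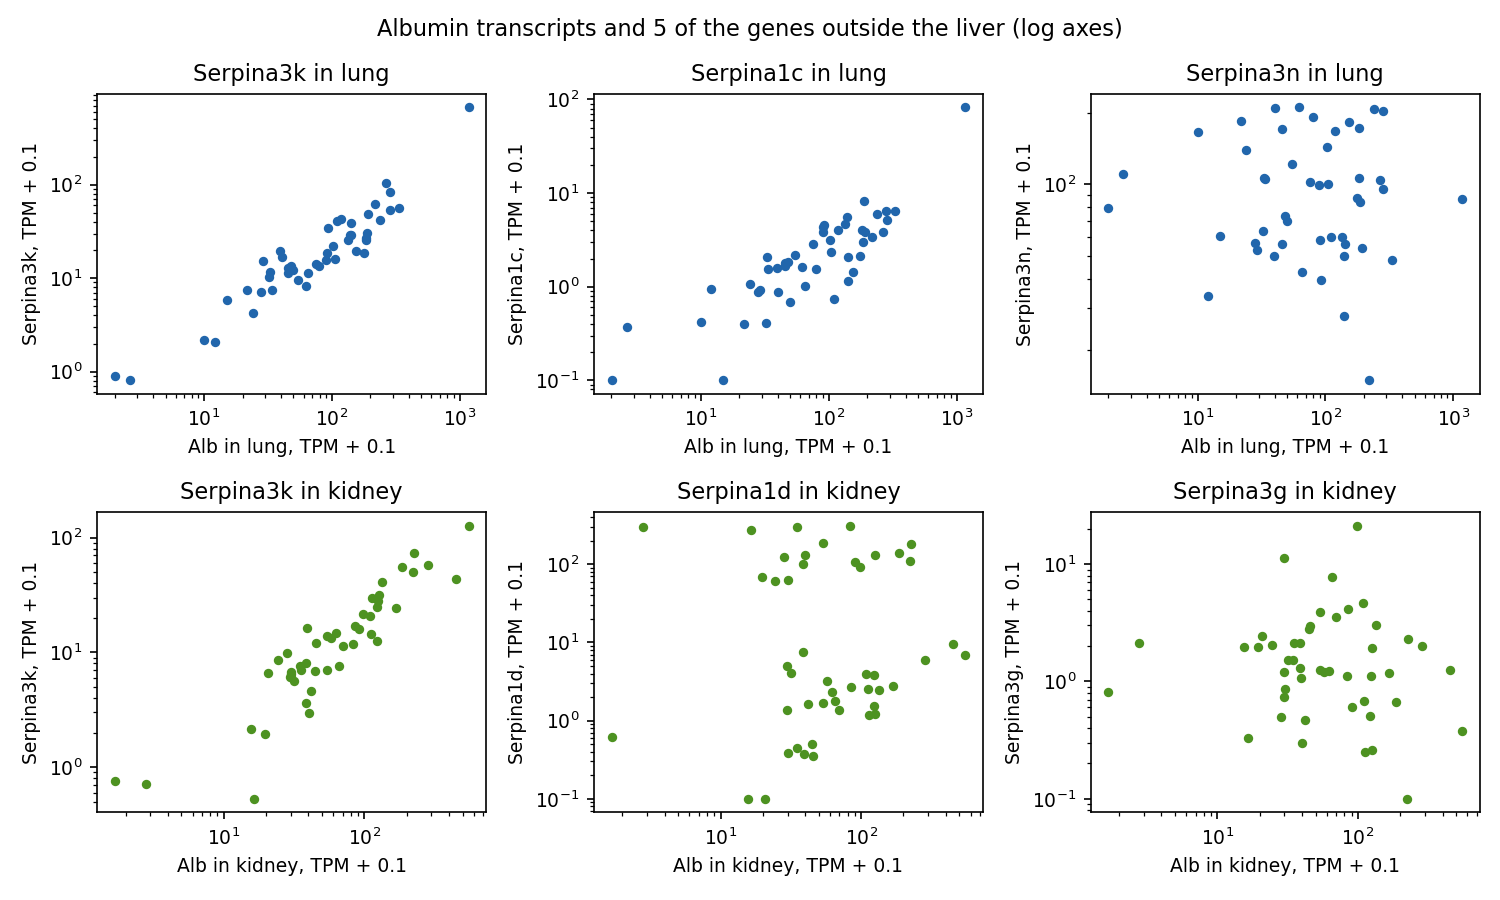
Levels of Alb, the gene of the hepatocyte protein albumin, on the horizontal axes and of 5 of the genes on the vertical axes, as TPM plus 0.1 on log axes, with 1 point per strain in lung (upper row) and kidney (lower row). Serpina3k follows Alb in both rows, Serpina3g does not, and Serpina1d in kidney forms a high set whose level does not follow Alb (r = 0.03 in 17 strains).

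Correlations of the same gene between tissues of a strain asked whether strains that were high in one tissue were high in another. Of all genes, 13.5% were called at q of at most 0.1 between liver and lung, 23.5% between liver and kidney and 17.4% between lung and kidney, with median r of 0.14, 0.18 and 0.15. Leaving out the members split into sets, 2 of 7 members were called between liver and lung, 1 of 5 between liver and kidney and 2 of 7 between lung and kidney. Counts of so few genes cannot be set apart from the shares over all genes.
Between liver and lung, Serpina1b had r = 0.38 (rho = 0.37, permutation p = 0.0084, q = 0.074, n = 47) and 0.31 once the 2 strains most distant from the median were left out. Serpina3m had r = 0.36 (rho = 0.39, permutation p = 0.012, q = 0.093) and 0.36 without those strains. Between liver and kidney, Serpina3g had r = 0.39 (rho = 0.35, permutation p = 0.0070, q = 0.044) and 0.28 without those strains, and it was no longer called without CC010 and CC016 (r = 0.32).
Between lung and kidney, Serpina3n had r = 0.53 (rho = 0.52, permutation p = 0.00019, q = 0.0043) and 0.52 without the 2 farthest strains, and Serpina3g had r = 0.48 (rho = 0.45, permutation p = 0.00060, q = 0.0097) and 0.36 without them. Serpina3k was not called between any 2 tissues, with r of -0.02, 0.03 and -0.19 (q from 0.43 to 0.96). Serpina3n in liver had r of -0.19 with lung (q = 0.47) and 0.06 with kidney (q = 0.81).
Within the sets of Serpina1e in liver, r between liver and lung was 0.34 in the high set (rho = 0.28, permutation p = 0.12, q = 0.53, 23 strains, where 2.1% of all genes were called) and 0.07 in the low set (q = 0.92, 24 strains, 5.81% of all genes called). Between liver and kidney r was -0.02 in the high set (q = 0.97, 7.08% of all genes called) and 0.22 in the low set (q = 0.62, 7.39% called). Within the sets of Serpina1d in kidney, r between kidney and liver was -0.26 in the high set (rho = -0.13, permutation p = 0.32, q = 0.66, 1.87% of all genes called) and 0.02 in the low set (q = 0.98, 12.1% called). The level within a set was thus not called as shared between tissues for either gene. Over all 47 strains, with both sets together, Serpina1d had r = 0.59 between liver and kidney (rho = 0.66, permutation p = 2e-05, q = 0.00076). Its r was 0.61 without the 2 farthest strains.

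Within liver, 0.0716% of 80973 pairs of a member and another gene were called. Of the 28 pairs of members outside Serpina1e that were tested, 2 were called, both with Serpina1b. With TPM not scaled by TMM 13 were called, and without the low filter 1, but the shares over all pairs under those settings are not given. Serpina1b had r = 0.71 with Serpina3k (rho = 0.71, permutation p = 1e-05, the smallest that 100000 permutations can give, q = 0.054) and 0.62 with the 2 most distant strains left out. It had r = 0.60 with Serpina3n (rho = 0.68, permutation p = 3e-05, q = 0.074) and 0.68 without them. Serpina1c had r = 0.49 with Serpina1b (q = 0.21) and 0.50 with Serpina3k (q = 0.19). Serpina3m had r = -0.47 with Serpina3k (q = 0.22), which did not pass. Within the high set of Serpina1e, r with Serpina3k was 0.67 (rho = 0.71, permutation p = 0.00040, q = 0.33, 23 strains), and 0.10 in the low set (q = 0.98, 24 strains).

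The genes with the pattern most like Serpina3k across livers were Aadat, an aminotransferase of kynurenine and lysine metabolism (r = 0.79, rho = 0.77, permutation p = 1e-05, q = 0.054), Cyp7b1, a hydroxylase of oxysterols and bile acid precursors (r = 0.74, rho = 0.72, permutation p = 1e-05, q = 0.054), and the clade A serpin pseudogene Serpina4-ps1 (r = 0.73, rho = 0.71, permutation p = 1e-05, q = 0.054). Of the 58 pairs called in liver, 35 with genes that are no member were those of Serpina3k. For Serpina1b they were Aadat (r = 0.61, q = 0.074), Klf9, a transcription factor induced by glucocorticoids (r = 0.58, q = 0.092), and Golph3 (r = 0.51, q = 0.16), the last not past the threshold.
Serpina3n was closest to Lrg1, an acute-phase glycoprotein (r = 0.57, q = 0.097), and Serpina10, the inhibitor of clotting factor Xa (r = 0.56, q = 0.068). Serpina3m was closest to Ctsc, the protease that activates granzymes and neutrophil elastase (r = 0.58, q = 0.068), and Mat1a, the liver methionine adenosyltransferase (r = 0.58, q = 0.068), and it was negatively correlated with Serpina9 (r = -0.67, q = 0.068) and Serpina4-ps1 (r = -0.61, q = 0.054). Serpina3g was closest to Plekho2 (r = 0.59, q = 0.074), Primpol (r = 0.57, q = 0.098) and the neutrophil gene S100a8 (r = 0.56, q = 0.098), each with r between 0.46 and 0.52 without the 2 farthest strains. Serpina1c was called with Pim3 (r = 0.55, q = 0.092), and for Serpina1a and Serpina1d the most similar genes, Agpat5 (r = 0.56, q = 0.11) and Ifitm3 (r = 0.55, q = 0.13), did not pass. No gene of the list of 25 hepatic acute-phase genes, which does not hold Lrg1, and no interferon-gamma response gene of 11 was called with any member in liver.

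In lung, the most similar genes fell along the same lines as the hepatocyte markers. Those of Serpina3k were Bhmt, Alb and Cps1 (r from 0.93 to 0.94, q = 0.0055), and those of Serpina1c were Apoa1, Alb and Apoa5 (r from 0.87 to 0.90, q = 0.0055), all highly expressed in hepatocytes. Those of Serpina1d were Apoa1, Mug1 and Ces1c, those of Serpina1e Pzp, Hpx and Apoa1, and those of Serpina1b Fgb, Gc and Cyp2c29 (r from 0.69 to 0.84, q = 0.0055). Of the 36 pairs of members tested in lung 9 were called, all positive and all among Serpina1b, Serpina1c, Serpina1d, Serpina1e and Serpina3k.
Serpina3g, in contrast, was called with the class I histocompatibility gene H2-Q5 (r = 0.56, q = 0.019), the inflammasome sensor Nlrp1b (r = 0.53, q = 0.050) and Gm8369 (r = 0.52, q = 0.087). Serpina3c was called with Pnrc2 (r = 0.62, q = 0.0099), Palm2 (r = 0.59, q = 0.023) and Sft2d3 (r = 0.53, q = 0.057). For Serpina3n the most similar genes, the macrophage gene Adgre1, the C1 inhibitor gene Serping1 and Tnfrsf18 (r from 0.49 to 0.50, q from 0.15 to 0.18), did not pass, nor did those of Serpina3m, of which the closest was Ufsp1 (r = 0.49, q = 0.19).

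In kidney, Serpina3g had the most correlated genes, 88 of 10766 tested (0.817%), all outside the members. The closest were Nlrc5, the activator of class I histocompatibility genes (r = 0.76, rho = 0.76, permutation p = 1e-05, q = 0.0093), the lymphocyte surface gene Cd52 (r = 0.73, rho = 0.75, permutation p = 1e-05, q = 0.0093) and Wdfy4, which dendritic cells need for cross-presentation (r = 0.71, rho = 0.65, permutation p = 1e-05, q = 0.0093). Of 9 interferon-gamma response genes tested 4 were called, all positively, Gbp2, Ifngr2 and the immunoproteasome subunits Psmb8 and Psmb9, and the median r of the 9 was 0.39 against -0.02 over all genes. Macrophage markers varied with Serpina3g there too, with a median r of 0.48 over 3 markers, of which Adgre1 was called, and their part in the relation was not tested. In lung and liver the medians were 0.34 over 12 genes and 0.34 over 11, with none called.
Serpina3n in kidney was called with Serpinf1, the gene of pigment epithelium-derived factor (r = 0.62, q = 0.016), and H2-Q10 (r = 0.51, q = 0.088). Serpina3c was called with Rbp7 (r = 0.58, q = 0.0093), Rpa3 (r = 0.57, q = 0.022) and the matrix gene Dcn (r = 0.56, q = 0.036). Serpina3k was closest to Cps1, Apoa1 and Alb (r from 0.91 to 0.94, q = 0.0093), Serpina1e to Vtn, Mug1 and Cps1 (r from 0.75 to 0.77, q = 0.0093) and Serpina1c to Trf, Fgb and Bhmt (r from 0.64 to 0.74, q = 0.0093). Serpina1b was called with Tbp alone among genes outside the members (r = 0.52, q = 0.070).

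The genes around the members in the pathway were described in the same tissue comparison, and the counts below stand beside the shares over all genes: 23.9% higher in liver and 31% in lung, 15.6% higher in liver and 20.8% in kidney, and 25.5% higher in lung and 20.6% in kidney. Genes that passed the filter on low counts only through their livers were bound by it to be high there. Of the 16 other clade A serpins in the tables, 7 were tested. Of these 6 were higher in liver and 1 in lung in the first comparison, and 7 exceeded kidney in liver, but 6 of the 7 passed the filter only through their livers, and the one that did not, Serpina3h, was higher in lung than in liver. Serpina6, the corticosteroid-binding globulin, had 265 ± 128 CPM in liver and 0.230 ± 0.346 in lung, a mean under the floor. Serpina3h was highest in lung, at 15.4 ± 19.4 CPM against 4.65 ± 6.19 in liver and 1.16 ± 1.70 in kidney. Of 12 tested serpins of other clades, 5 were higher in liver, 1 of them through the filter, and 6 in lung. Serpinc1, the gene of antithrombin, had 2544 ± 439 CPM in liver and 2.43 ± 2.32 in lung, and Serpinf2, that of the plasmin inhibitor, had 322 ± 106 CPM in kidney against 1.36 ± 1.4 in lung (log2 fold change -8.10 ± 0.11 for lung against kidney).

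Of 15 tested serine and cysteine proteases, which include targets of these inhibitors, 9 were higher in liver, 1 of them through the filter, and 6 in lung, and between lung and kidney 1 was higher in lung and 7 in kidney. The largest fold changes toward liver were those of Plg, the plasminogen gene (10.94 ± 0.14 on the log2 scale for liver against lung), and F2, the prothrombin gene (10.51 ± 0.13). Gzma, the granzyme A gene of cytotoxic lymphocytes, was the protease called as higher in lung than in kidney, at 8.27 ± 7.83 CPM against 0.272 ± 0.348. This kidney mean is under the floor. The liver mean of Gzma, 0.668 CPM, was low too, so the filter on low counts may have set this call. Plau, the urokinase gene, had 467 ± 173 CPM in kidney against 7.44 ± 3.22 in lung.

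Of 11 tested liver-enriched transcription factors 9 were higher in liver than in lung and 8 higher than in kidney, and none was lower. Without the 5 that passed the filter only through their livers, 4 and 3 of the other 6 were higher. Between lung and kidney, 2 of the 11 were higher in lung and 4 in kidney. Hnf4a had 15.3 ± 5.30 CPM in kidney and 0.0308 ± 0.0538 in lung, a mean under the floor. Foxa1 went the other way, with 17.3 ± 4.06 CPM in lung and 0.501 ± 0.474 in kidney. Of 25 hepatic acute-phase genes 22 were higher in liver than in lung and 24 higher than in kidney, or 13 and 14 of the 15 that did not pass through their livers alone. Between lung and kidney, 13 of the 25 were higher in lung and 4 in kidney, or 8 and 3 of those 15. Hp, the haptoglobin gene, was among those higher in lung, at 29.4 ± 12.1 CPM against 0.542 ± 0.559 in kidney. Of 10 genes of IL-6, LIF and IL-1 signalling 7 were higher in lung than in kidney and none was lower, Socs3 with 20.1 ± 5.14 CPM against 2.46 ± 2.15. Of 14 interferon-gamma response genes 9 were higher in lung than in kidney and 1 lower, with Gbp2 at 55.9 ± 73.2 CPM against 14.2 ± 36.8.
Of 16 genes of folding and export of secreted proteins in the endoplasmic reticulum, 12 were higher in liver than in lung and none lower. Lman1, the cargo receptor that carries alpha-1-antitrypsin out of the endoplasmic reticulum, had 204 ± 40.5 CPM in liver and 31.3 ± 5.11 in lung (log2 fold change 2.71 ± 0.04, q = 3.5e-78, limma-voom).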

How the data were processed

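RNA was sequenced by the authors as 50-base single-end reads, which were aligned with STAR 2.5.3a to a pseudo-genome of each strain (build mm9, NCBIM37) and quantified with RSEM from uniquely aligned reads. Per the file headers, each library's table holds expected counts, TPM and FPKM per gene. The authors deposited expected counts without normalization, TPM scaled by effective length and to a fixed sum per library, and FPKM, which was read only for a check of its unit. Expected counts were rounded (25 values were not whole to within 1e-09). Sequencing batches are named in the study's methods but are not in the labels, so no within-batch value could be given. Members, gene lists and marker lists were chosen with earlier results of these data known.

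Tissues were compared with limma-voom 3.58.1 (R 4.3.3) on TMM-scaled counts (edgeR 4.0.16), over genes above 1 CPM in 30% of libraries or more, with tissue and strain as terms. The strain names in the labels pair the tissues, and over all genes the median r between tissues of a strain was 0.14 to 0.18. P-values were adjusted by Benjamini-Hochberg over all genes tested. On simulated counts with changes placed in liver alone, the liver comparisons recovered the changed genes, and lung against kidney was tested only for false calls. For correlations across strains, TMM-normalized TPM were turned into rank inverse normal values, for genes above 1 TPM in more than 50% of a tissue's libraries, with 100000 permutations, two-sided (numpy 2.4.6). Members whose strains part at a wide gap were examined within each set. Named genes were the members, up to 3 genes per list and comparison with the largest called fold change, the 3 genes with the highest r for each member and tissue, and marker genes. Other genes named beside small counts, and the serpins negatively correlated with Serpina3m, were chosen after their values were seen. Lists are described by counts and medians, with no test of their own. Some named genes of the lists are not reported here. P-values of the tissue comparisons measure how the difference between tissues of the same mouse varied across strains. Those of the correlations rest on permuting the strains. Unique windows and loops were read from NCBIM37 with GENCODE vM1, promoters from RefSeq.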

Additional observations from a re-analysis of the deposited data

How the results depend on the processing

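Among the calls in the tissue comparisons no direction turned and no call was lost under 13 alternatives: stricter q, no fold threshold, other scalings, no low-count filter, the other fits and the leaving out of libraries. In fits of only the tissues compared, Serpina3c in liver against kidney and Serpina1a in lung against kidney were under the low-count filter and gave no value. The members called stayed at 9 or 10 of 10 for liver against lung, 9 or 10 for liver against kidney and 6 to 8 for lung against kidney. The calls over all 12127 genes moved too. Scaled by total counts, 1186 were higher in liver and 7474 in lung, against 2901 and 3763 with TMM. Between liver and kidney these were 981 and 5795, against 1891 and 2521. Between lung and kidney they were 4046 and 1831, against 3089 and 2502. The shares under most other alternatives are not given. Without the strain as replicate block 9, 9 and 6 were called, as with it. Scaling by total counts moved the median log2 fold change of all genes by -1.38 (liver against lung), -0.95 (liver against kidney) and 0.42 (lung against kidney), and the share of calls that were higher in liver against lung from 43.5% to 13.7%, against kidney from 42.9% to 14.5%, and of those higher in lung against kidney from 55.2% to 68.8%.

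The correlation counts depended on the settings, and the cause was not tested. Between liver and lung 2 members were called, 1 with TPM not scaled by TMM, 1 without strains with a library under 3000000 counts, 1 without CC010 and CC016 (added after seeing the data), and 0 without the low filter or at q of at most 0.01. Between liver and kidney 1 was called outside the members split into sets, and 0 without CC010 and CC016 or at q of at most 0.01. Between lung and kidney 2 were called, and 1 with TPM not scaled by TMM. Of the member pairs in liver 2 were called, 13 with TPM not scaled by TMM, 1 without the low filter and 0 at q of at most 0.01. The shares over all genes or pairs under these settings are not given, so these counts cannot be read as a result about the members. By the median in place of the mean over strains, 5 of 10 members kept their place in the order within liver, since Serpina1e fell from the 3rd to the 7th place, and per unique window 7 did, since Serpina1c came before Serpina1b and Serpina1e after both. The sets of 23 and 17 strains came out as 20 and 15 without strains with a library under 3000000 counts. Depth limits Serpina1a in every lung and kidney, Serpina3m in kidney, Serpina3c in liver and kidney, Serpina3g in kidney, and Serpina1c, Serpina1d and Serpina1e in lung and kidney, where 9 or more of the 47 libraries held 3 counts or fewer.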
